A study of Mus musculus with 6 samples.

Results

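The regions described here were strongly accessible in every library of a reprogramming series. They are 5222 of 218231 autosomal regions (2.39%), out of 223596 regions in all, and they were chosen from the measured values. A region was taken when it lay on chromosomes 1 to 19 and held at least 500 normalised counts in each of 6 libraries. Normalised counts are reads in a region divided by a scaling factor of the library, the size factor. Since all 6 values of a region entered the choice, the levels below are a description of these libraries, and no test was made on them.

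Open chromatin was profiled by ATAC-seq, a method in which a transposase cuts open chromatin and the sequenced ends are counted. The first library came from female hybrid mouse embryonic fibroblasts (MEFs), with 1 X chromosome from *Mus musculus* that carried a GFP transgene and the other from *Mus castaneus*. The MEFs had been transduced with 2 lentiviruses, tetO-FUW-OSKM for the reprogramming factors Oct4, Sox2, Klf4 and c-Myc and FUW-M2rtTA for their activator, and were sorted as GFP-negative (Xi-GFP) cells before induction, at day 0. Reprogramming was then induced with doxycycline at 2 µg/ml, with ascorbic acid at 50 µg/ml. SSEA1+ Xi-GFP intermediates were isolated at days 8, 9, 10 and 12. The last library came from induced pluripotent stem cells (iPSCs), grown from picked colonies after doxycycline and ascorbic acid had been withdrawn, although the growth notes list ascorbic acid for iPSCs as well. Each time point had 1 library made from 20000 cells, so no difference between time points has a replicate check, and how much separate cultures vary is unknown. The number of iPSC colonies behind the last library is not given in the sources used here.

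A small fraction of open chromatin is shared by nearly all cell types. It is known to include the CpG-rich promoters of housekeeping genes, which are kept free of nucleosomes in dividing cells, and many sites bound by CTCF, a factor that organises chromatin loops. Regions that differ between fibroblasts and pluripotent cells are more often distal enhancers, which are opened by cell-type-specific factors. The regions are named here by their row number in the table and their chromosome. Their coordinates, genes and sequences are not analysed here.

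The libraries held 22067333 to 32844411 reads in regions, of which 4761125 to 6863759 were in the strong regions. The median strong region had 846 to 1170 reads depending on the library, and the fewest reads in a strong region were 252, in MEF day 0. The size factor of MEF day 0 was 0.498, against 0.798 in iPSC and 1.105 to 1.4008 in the intermediates, so that a read counted for more in MEF day 0 than in any other library. For this reason levels are also given after scaling every library to the same total of autosomal normalised counts. Relative to MEF day 0, this second scaling raised the other libraries by 1.01 (iPSC) to 1.32 (day 12) on the log2 scale.

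On the authors' scale the strong regions were most accessible in MEF day 0. Their median was 2281 normalised counts in MEF day 0, then 911, 782, 924 and 848 on days 8, 9, 10 and 12, with 1060.2 in iPSC. MEF day 0 was the highest library for 4925 of the 5222 regions (94.3%), and iPSC for 159. Day 9 was the lowest for 3187 (61.0%) and day 12 for 1248. Among the 35817 other autosomal regions with at least 50 normalised counts in all 6 libraries, MEF day 0 was highest for 58.7%. Day 9 was the lowest for 31.0% of those regions. With equal autosomal totals the medians of the strong regions came close together, at 1235, 1032, 986, 1129.7, 1145 and 1156 in the same order. MEF day 0 was then the highest library for 2390 strong regions (45.8%) and for 27.1% of the other regions. How far MEF day 0 stood above the other libraries thus depended on the scaling.

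**Figure D1:**
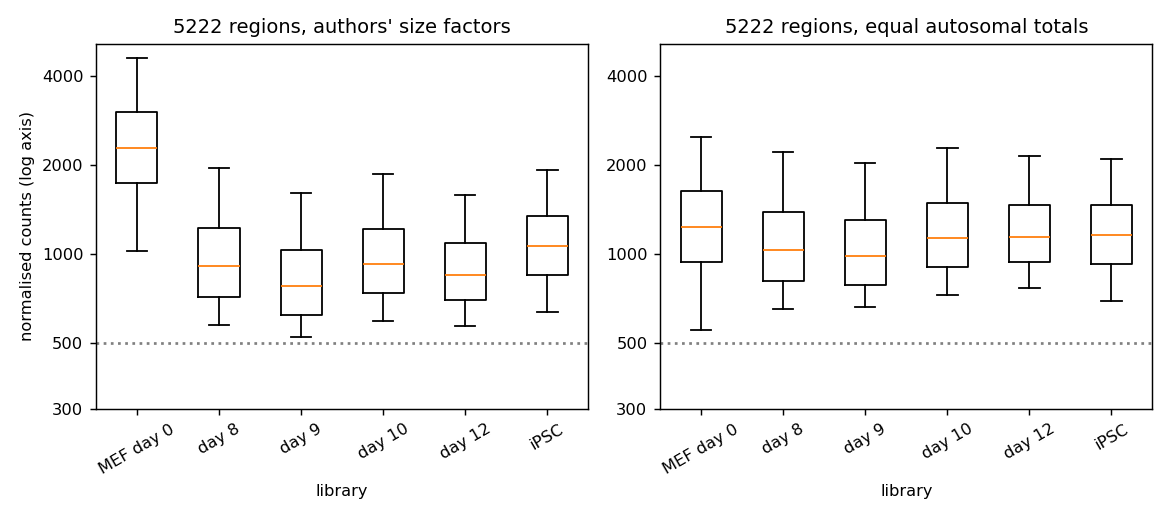
Normalised counts of the 5222 strong regions (log axis) in each library, with the authors' size factors on the left and with equal autosomal totals on the right. Boxes span the 25th to 75th percentile with the median as a line, whiskers the 5th to 95th percentile, and the dotted line is the cutoff of 500; the median of MEF day 0 stands at 2281 on the left and at 1235 on the right.

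Once the regions are chosen, their share of reads needs no size factor, and it lay between 20.01% and 24.2%. The choice itself used the size factors. Chosen with equal totals, 6355 regions took 28% of reads in MEF day 0 and 25.4% in iPSC. With equal totals and a cutoff of 580.2, 5226 regions took 24.7% and 22.3%. In MEF day 0 the strong regions took 24.2% of the autosomal reads, with a 95% Wilson interval of 24.1% to 24.2%. They took 21.1% (21.1% to 21.1%) and 20.01% (19.998% to 20.03%) on days 8 and 9, then 22.8% (22.8% to 22.8%) and 22.7% (22.7% to 22.7%) on days 10 and 12. The iPSC share was 22.4% (22.4% to 22.4%). The intervals reflect counting error alone, as PCR copies make reads dependent. Among low values, even read numbers outnumbered odd ones 1.12-fold to 1.51-fold, and if both ends of each fragment were counted the intervals would widen 1.41-fold. The share was thus highest in MEF day 0 and lowest at day 9, with a ratio between these libraries that no second culture could be set against.

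**Figure D2:**
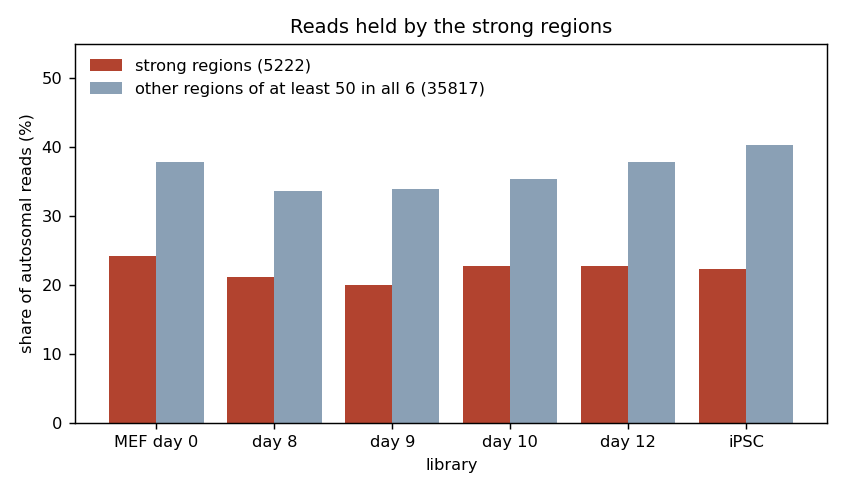
Share of autosomal reads (%, bars from 0) in the 5222 strong regions and in the 35817 other autosomal regions with at least 50 normalised counts in all 6 libraries, for each library. The strong regions hold 20.01% to 24.2% of the reads with 2.39% of the regions, and the other group holds 33.6% to 40.3%.

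Autosomal regions that reached 500 normalised counts did so most often in 1 library or in all 6. How many reach it rests on the size factors, as the fewest reads of a member were 252 in MEF day 0 and 701 at day 9. The numbers were not repeated with equal totals. Of the autosomal regions, 183466 (84.1%) reached 500 normalised counts in no library and 20869 in exactly 1, which was MEF day 0 for 17440 of them and iPSC for 2218. Then 3660 regions reached it in 2 libraries, 2298 in 3, 1388 in 4 and 1328 in 5, before the number climbed to 5222 in all 6. Of the 1328 regions that missed in a single library, 592 missed at day 9, where their median was 463, close to the cutoff. Another 315 missed in MEF day 0, where their median was 169 and 203 of them were under 250. A further 239 missed in iPSC, with a median of 320. Misses at day 9 were therefore mostly narrow, whereas those in MEF day 0 included regions that were nearly closed, down to 2.01 normalised counts, the value of a single read.

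The regions nearest to the cutoff differed from each other by less than counting error in their lowest library. The 3 members with the lowest minimum were row 208973 on chromosome 9, at 500.0 in iPSC, and rows 72169 on chromosome 15 and 111544 on chromosome 2, both at 500.4 at day 9. The 3 regions just outside were row 209811 on chromosome 9, at 499.9 at day 10, and rows 22138 on chromosome 10 and 113040 on chromosome 2, both at 499.7 at day 9. In all, 717 members had a minimum under 550 and 835 other regions a minimum of at least 450 and under 500. At the upper end, 1179 members stayed at 1000 or more in every library and 56 at 2000 or more.

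The strong regions made up different parts of the strongest chromatin of each library. All autosomal regions of at least 500 normalised counts numbered 28721 for MEF day 0, 12950 for iPSC and 7954, the fewest, for day 12, and the strong regions were 18.2%, 40.3% and 65.7% of them. These shares depend on the size factors. When each library was instead asked for its own 5222 strongest autosomal regions, members filled 62.9% of the places in MEF day 0, then 69.4%, 70.5%, 77.8% and 85.8% on days 8, 9, 10 and 12, with 73.3% in iPSC. The choice largely fixes this order, since with a cutoff of 500 all members had to lie among the 7954 strongest regions at day 12 but only among the 28721 strongest in MEF day 0.

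To describe how steady a region was, its highest value over the 6 libraries was divided by its lowest. The median of this ratio was 2.97 over the strong regions, and 521 of them (9.98%) stayed within 2-fold, against 2.68% of all autosomal regions counted with at least 50 normalised counts in the highest library. Without MEF day 0 the median was 1.42 and 4898 (93.8%) stayed within 2-fold, and over days 8 to 12 alone it was 1.27. With equal autosomal totals the median over all 6 libraries was 1.49 and 4512 strong regions (86.4%, background 6.79%) stayed within 2-fold. The 35817 other regions with at least 50 normalised counts throughout had a median ratio of 3.71 on the authors' scale, where 10.9% stayed within 2-fold, slightly more than among the strong regions. Without MEF day 0 their median ratio on that scale was 2.13 and 44.6% stayed within 2-fold. With equal totals over all 6 libraries their median ratio was 3.02, and 23.6% stayed within 2-fold. Their fewer reads widen this ratio by counting error, and the cutoff of 500 itself limits how low a member can be.

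Differences between neighbouring time points were then counted with a 2-fold threshold, a log2 difference of at least 1 between deposited values, where the higher of both libraries had to reach 50 normalised counts. Each count stands beside the percentage of all 218231 autosomal regions called by the same rule, and since the choice of members used both libraries of every contrast, nothing more is drawn from it. From MEF day 0 to day 8, 17 strong regions were higher (background 20.6%) and 3915 lower (background 31.7%), which with equal totals became 211 higher (background 28.6%) and 172 lower (background 16.6%). At day 9 relative to day 8, 0 were higher (1.22%) and 1 lower (1.87%). At day 10 relative to day 9, 1 was higher (0.502%) and 0 lower (1.24%). At day 12 relative to day 10, 0 were higher (5.64%) and 2 lower (7.3%). In iPSC relative to day 12, 25 were higher (13.3%) and 3 lower (9.52%). With equal totals these became 3 higher (7.92%) and 8 lower (14.9%), so the balance at this step rests on the scaling. The floor of 500 normalised counts in every library limits such calls among members.

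Between the ends of the series, 30 strong regions were at least 2-fold higher in iPSC than in MEF day 0 (background 19.8%) and 3251 lower (background 28.6%). At a 4-fold threshold 2 were higher (background 13.4%) and 133 lower (background 18.7%). At the 2-fold threshold with equal autosomal totals, 215 were higher (background 27.7%) and 126 lower (background 16.3%). The median log2 difference was -1.12 on the authors' scale, against -0.18 over all autosomal regions. It was -0.12 with equal totals, against 0.78 over all autosomal regions. On both scales the median difference of the strong regions was below that of all autosomal regions by nearly the same amount. A change of scaling moves every region alike. The other regions with at least 50 normalised counts in all 6 libraries had a median difference of -0.62 on the authors' scale.

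The spread of the log2 difference over strong regions does not depend on the scaling. Its SD was 0.55 between MEF day 0 and day 8, then 0.15, 0.16 and 0.20 for the steps to days 9, 10 and 12, and 0.25 for the step to iPSC. Counting error alone, with fragments as the unit, gives an SD of 0.09 to 0.10 at these read numbers. What remains holds variation between cultures and libraries, which cannot be told apart from time with 1 library each, and the cutoff of 500 limits the spread among members. The other open regions had SDs of 1.53, 0.33, 0.31, 0.54 and 0.73, with 0.21 to 0.26 from counting error. After removal of the median shift, 79.7% of the strong regions lay within 1.5-fold of the median change from MEF day 0 to day 8, and 97.0% from day 12 to iPSC.

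**Figure D3:**
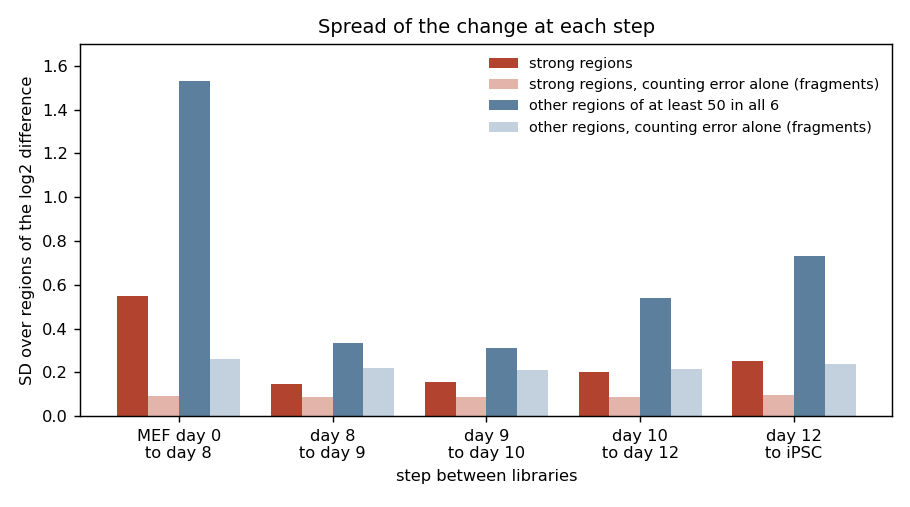
SD over regions of the log2 difference at each step between neighbouring libraries (bars from 0), for the strong regions and for other autosomal regions with at least 50 normalised counts in all 6 libraries, each beside the SD that counting error alone gives with fragments as the unit. Among strong regions the SD is 0.55 from MEF day 0 to day 8 and 0.15 to 0.25 at the later steps.

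The order of the strong regions by level was kept from day to day within the intermediates and only partly from MEFs to later stages. Across the 5222 regions, which are not independent and share the library and its depth, Pearson's r of the log2 values was 0.963 for days 8 and 9 (Spearman's rho 0.95) and 0.953 for days 9 and 10 (rho 0.938). Days 10 and 12 gave 0.917 (rho 0.895), and day 12 with iPSC gave 0.859 (rho 0.847). MEF day 0 correlated with r of 0.588 to day 8, 0.657 to day 12 and 0.581 to iPSC. The other open regions had r of 0.949 for days 8 and 9. For them MEF day 0 gave 0.333 with day 8 and 0.373 with iPSC, so the pattern is not particular to the strong regions. Of the 500 strongest members of MEF day 0, 304 were also among the 500 strongest at day 8 and 298 in iPSC, whereas days 8 and 9 shared 445. A principal component analysis used log2 values centred on each region and then on each library, which takes out shifts of a whole library. The leading component held 58.0% of the variance and set MEF day 0 (loading -0.89) against days 8 to 10 (0.22 to 0.30). The next held 32.0% and set iPSC (0.81) against MEF day 0 (-0.22) and days 8 to 10 (-0.35 to -0.22). On it day 12 lay in between (0.25).

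Strength was ranked by the mean over the 6 libraries on the authors' scale, which is weighted towards MEF day 0. The ranks were not repeated with equal totals. The strongest region of the set was row 218224 on chromosome 9. It had 11165 normalised counts in MEF day 0 (5560 reads), then 5764, 4737, 5969 and 5170.1 on days 8, 9, 10 and 12, with 5267 in iPSC. With equal totals its highest and lowest library differed by 1.27-fold only, so that it was among the steadier regions as well. The second, row 79698 on chromosome 15, had 9307 in MEF day 0, then 3998, 3123, 3819 and 3125 on days 8, 9, 10 and 12, with 3455 in iPSC. The third, row 34385 on chromosome 11, had 10524 in MEF day 0, then 3144, 2848, 3689.95 and 3009 on days 8, 9, 10 and 12, with 2952 in iPSC. All 3 were highest in MEF day 0 on the authors' scale, as was the fifth, row 178568 on chromosome 6, with 8643 in MEF day 0 and 2852 to 3615 in the other libraries.

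The fourth strongest went the other way. Row 79101 on chromosome 15 had 3181 normalised counts in MEF day 0, then 3770.2, 3489, 3619 and 4439 on days 8, 9, 10 and 12, with 6301 in iPSC. This was a 1.98-fold higher level in iPSC than in MEF day 0 (95% exact interval 1.87 to 2.10, counting error only), and 3.99-fold with equal totals. The 100 strongest members together held 0.951% to 1.14% of the autosomal reads of a library, so no handful of regions carried the set.

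Among the regions that were far higher in iPSC than in MEF day 0, the level moved in stages. Row 61022 on chromosome 13 had 620.5 normalised counts in MEF day 0 (309 reads), then 1532, 1184, 1099 and 1277 on days 8, 9, 10 and 12, with 2734 in iPSC (2182 reads), a ratio of 4.41 (95% exact interval 3.91 to 4.98). Row 13833 on chromosome 1 had 675 in MEF day 0, then 1113, 971, 1127 and 1259 on days 8, 9, 10 and 12, with 2856 in iPSC, a ratio of 4.23 (3.77 to 4.76). Both stood at an intermediate level through days 8 to 12 and were highest in iPSC. The other 3 of the 5, row 201684 on chromosome 8, row 37716 on chromosome 11 and row 181338 on chromosome 7, had ratios of 3.73, 3.52 and 3.43. All 5 had MEF day 0 as their lowest library, and with equal totals their ratios were 6.91 to 8.87.

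The regions that were far lower in iPSC than in MEF day 0 took 2 courses. Row 72996 on chromosome 15 had 4841 normalised counts in MEF day 0 (2411 reads), then 595.5, 762, 733 and 516 on days 8, 9, 10 and 12, with 519 in iPSC (414 reads). Its level in MEF day 0 was 9.33 times that in iPSC (95% exact interval 8.40 to 10.4), and most of the difference was present at day 8. Row 75575 on chromosome 15 instead had 6131 in MEF day 0, then 2641, 2277, 2717 and 1489.7 on days 8, 9, 10 and 12, with 694 in iPSC, with a ratio of 8.83 (8.06 to 9.68). Here the level was still high at day 10 and lower at day 12 and in iPSC. Row 105551 on chromosome 19 had the same kind of course, with 4189 in MEF day 0, then 1742, 1482, 1534 and 794 on days 8, 9, 10 and 12, with 535 in iPSC. Rows 121010 on chromosome 2 and 36126 on chromosome 11 had ratios of 8.57 and 8.46. With equal totals the 5 ratios were 3.89 to 4.63, so MEF day 0 stayed above iPSC, by a smaller factor.

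A few strong regions were higher at days 8 to 10 than at both ends. Row 13912 on chromosome 1 had 869.5 normalised counts in MEF day 0, then 1921, 1558, 1554 and 805 on days 8, 9, 10 and 12, with 525 in iPSC, so that it was highest at days 8 to 10. Row 158338 on chromosome 5 had 1414 in MEF day 0, then 2634, 1999.6, 1896 and 958 on days 8, 9, 10 and 12, with 579 in iPSC. Row 102656 on chromosome 18 had 556 in MEF day 0, then 1383, 1158, 1100.2 and 669 on days 8, 9, 10 and 12, with 535 in iPSC. On this scale its level was nearly the same at both ends, whereas with equal totals its iPSC to MEF day 0 ratio was 1.94. In these 3 the mean log2 level of days 8 to 12 was 0.93 to 1.04 above the mean of both ends. That measure does not ask for a level above the higher end, unlike the rule that follows. At day 12 rows 13912 and 158338 lay between their levels in MEF day 0 and iPSC on the authors' scale. With equal totals they had 1086 and 1293 at day 12 and lay above both ends. Regions with intermediates at least 1.5-fold above both ends numbered 7 (0.134%) on the authors' scale, where 15.5% of all autosomal regions met the same rule with at least 50 normalised counts in their highest library, and 61 (1.17%, background 22.2%) with equal totals.

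The opposite course was most marked in row 35621 on chromosome 11, row 105451 on chromosome 19 and row 211855 on chromosome 9. Row 35621 had 6392 normalised counts in MEF day 0, then 897, 715, 884 and 879 on days 8, 9, 10 and 12, with 1573 in iPSC. Row 211855 had 5992 in MEF day 0, then 833, 724, 905 and 869 on days 8, 9, 10 and 12, with 1593 in iPSC. Row 105451 had 5998 in MEF day 0, then 833, 657, 918 and 1025 on days 8, 9, 10 and 12, with 1660.4 in iPSC. Regions with intermediates at least 1.5-fold below both ends numbered 675 (12.9%, background 15.1%) on the authors' scale and 84 (1.61%, background 6.36%) with equal totals. The cutoff of 500 in every library limits both kinds of course.

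The steadiest regions depended on the scaling. On the authors' scale the smallest ratio of highest to lowest library was 1.12, in row 186441 on chromosome 7. It had 582 normalised counts in MEF day 0 (290 reads), then 558, 548, 548 and 521 on days 8, 9, 10 and 12, with 558 in iPSC (445 reads). Its iPSC to MEF day 0 ratio was 0.958 (95% exact interval 0.824 to 1.11), and with equal totals that ratio was 1.93. Row 22332 on chromosome 10 was as steady at a higher level, with 1408 in MEF day 0, then 1405, 1254, 1387 and 1338 on days 8, 9, 10 and 12, with 1404 in iPSC. Row 27100 on chromosome 10, row 200422 on chromosome 8 and row 65751 on chromosome 14 had ratios of 1.15 to 1.18. With equal totals all 5 spanned 2.23-fold to 2.60-fold, with MEF day 0 the lowest library, so their flat course holds for the authors' size factors and not for the other scaling.

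**Figure D4:**
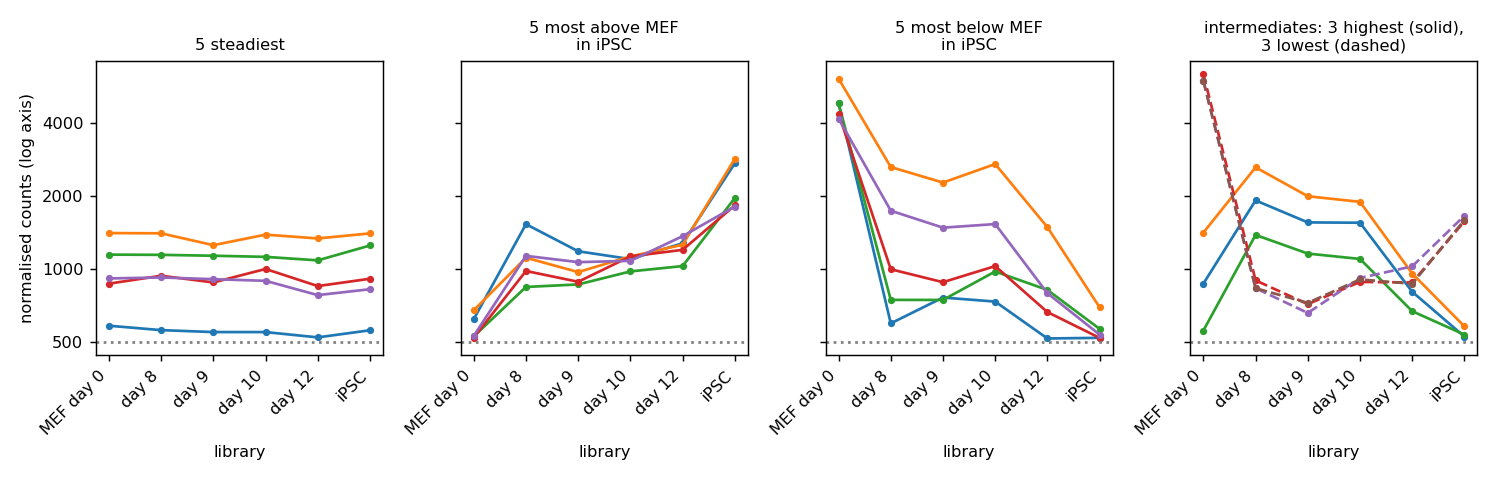
Normalised counts (authors' size factors, log axis) of single strong regions in the 6 libraries, 1 line per region, for the 5 steadiest, the 5 highest and the 5 lowest in iPSC relative to MEF day 0, and the 3 with the highest (solid) and 3 with the lowest (dashed) intermediates. The dotted line is the cutoff of 500; the steadiest regions span 1.12-fold to 1.18-fold.

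The chromosome of a region was not used by the choice among autosomes. The share of a chromosome's regions that were strong lay between 1.91% on chromosome 18 (144 of 7525, 95% Wilson interval 1.63% to 2.25%) and 3.49% on chromosome 7 (455 of 13037, 3.19% to 3.82%). Chromosome 19 had 3.36% (2.94% to 3.84%), chromosome 11 had 3.11% (2.84% to 3.40%) and chromosome 17 had 2.78% (2.47% to 3.13%). The other 15 autosomes had 1.91% to 2.51%. Which chromosome came first or last depended on the setting, as chromosome 19 was highest when the regions were chosen with equal totals (4.12%) or quantile normalisation (3.87%), and chromosome 6 was lowest with quantile normalisation (2.10%) and chromosome 13 at a cutoff of 1000 (0.358%). The intervals of chromosomes 7, 11, 17 and 19 lay above those of chromosome 18 and above the share over all autosomes, although neighbouring regions are not independent.

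Strong regions were most numerous on chromosomes rich in genes. Per Mb of known sequence (GRCm38) they numbered 1.42 on chromosome 14 and 3.88 on chromosome 11. For comparison, promoters of protein-coding genes in GENCODE vM21 were read from the genome sequence, from 250 bases before to 50 bases after the start of each gene, and called CpG-rich with a GC fraction of at least 0.5 and an observed to expected CpG ratio of at least 0.6. On the 19 autosomes 8836 of 20807 genes (42.5%) had such a promoter. The density of strong regions and that of CpG-rich promoters were correlated across the 19 autosomes, with r = 0.958 and rho = 0.974, and r = 0.907 without chromosomes 11 and 19, the most extreme 2. There were 59.1 strong regions per 100 CpG-rich promoters, from 52.2 on chromosome 5 to 71.4 on chromosome 7. With CpG dinucleotides per kb in place of promoters r was 0.859, and with all regions of the table per Mb it was 0.870. The other open regions were also tied to these promoters, with r = 0.983 between their number and that of CpG-rich promoters per chromosome, where the strong regions had 0.954, so the relation is not particular to the strong regions. Chromosomes share gene density, base composition and length, and whether a strong region lies at a promoter was not tested.

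**Figure D5:**
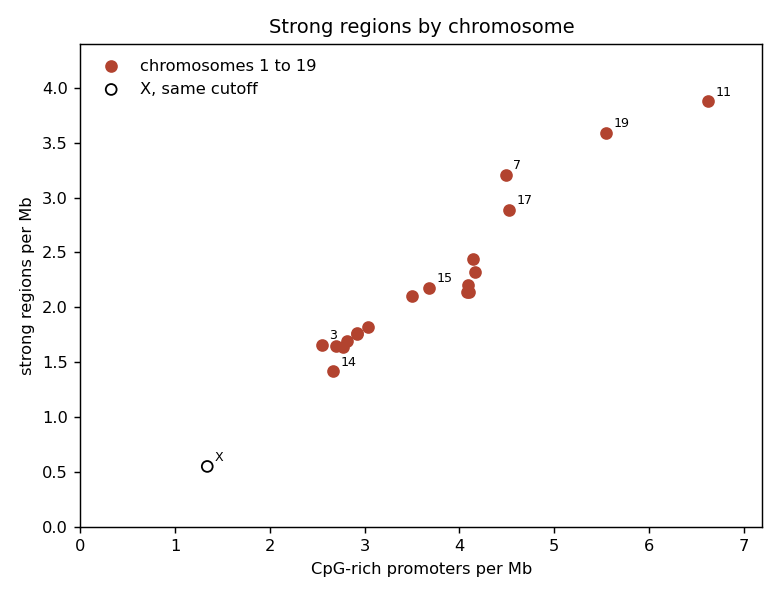
Strong regions per Mb against CpG-rich promoters per Mb, 1 point per autosome and an open circle for X-linked regions that pass the same cutoff, with some chromosomes labelled. Chromosomes 11, 19, 7 and 17 hold the most strong regions per Mb, up to 3.88, and the X chromosome 0.55.

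Most strong regions stood alone in the table, yet they followed each other more often than their share of all rows. Of the 5222, 4755 had no other member in the row before or after. Pairs in consecutive rows numbered 212, runs of 3 numbered 10 and longer runs 3. Rows next to a member were members in 4.57% of cases, against 2.39% of all autosomal rows. For the other open regions the same figures were 24.2% and 16.4%. The longest run held 5 regions, rows 52867 to 52871 on chromosome 13, whose normalised counts were 1171 to 2992 in MEF day 0, 503 to 880.2 at day 9 and 832 to 2573 in iPSC. Whether consecutive rows are neighbours in the genome is not given in the sources used here.

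The same cutoff was applied to the X chromosome, which in these cells has 1 inactive copy at the start and regains activity on that copy with reprogramming. It was passed by 90 of 5357 X-linked regions (1.68%, 95% Wilson interval 1.37% to 2.06%), against 2.39% of autosomal regions (2.33% to 2.46%). Their median was 1590.4 normalised counts in MEF day 0, then 772, 699, 744 and 812 on days 8, 9, 10 and 12, with 1422 in iPSC. The ratio of this median to that of the autosomal strong regions, in which size factors cancel, was 0.697 in MEF day 0, then 0.848, 0.894, 0.806 and 0.958 on days 8, 9, 10 and 12, with 1.34 in iPSC. Among regions that passed the cutoff, the X-linked ones were thus the lower group up to day 12 and the higher group in iPSC. Size factors cancel in this ratio only once the regions are chosen, as the choice itself used them. The common cutoff also limits how low either median can be, and both medians lay nearest to it at days 8 to 12. How far the cutoff shaped the course of the ratio was not tested. Of the 90, 88 (97.8%) had a log2 difference from MEF day 0 to iPSC above the median of the autosomal strong regions, with medians 0.99 apart. On the authors' scale 62 of the 90 (68.9%) were highest in MEF day 0 and 27 (30.0%) in iPSC, against 94.3% and 3.04% of the autosomal strong regions. With equal totals 2 were highest in MEF day 0 and 86 (95.6%) in iPSC, against 45.8% and 20.9%. The strongest X-linked region, row 223581, had 4323 normalised counts in MEF day 0, then 2403, 1848, 2595 and 2206 on days 8, 9, 10 and 12, with 3251 in iPSC.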

How the data were processed

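ATAC-seq libraries of 6 time points, 1 each, were analysed. The authors aligned paired-end reads to GRCm38/mm10 with the ENCODE ATAC-seq pipeline, joined alignments and peaks with DiffBind (version 3.8 per the submitters' processing notes), divided counts by DESeq2 (1.21.22) size factors and deposited log2 values, with a pseudocount of 1, not split by allele. Column names were matched to sample titles. From the log2 values, the pseudocount and the logarithm were removed to give normalised counts. Within a library 100.0% were whole multiples of 1 step to within 0.001, which gave reads and size factors. A value of 1 read can stand for 0. Equal autosomal totals was the main alternative scaling. Named regions were fixed by rule: the 5 strongest, the 5 with the smallest highest to lowest ratio, the 5 with the largest difference from MEF day 0 to iPSC in each direction, the 3 with the highest and the 3 with the lowest intermediates, 3 on each side of the cutoff and the strongest X-linked region. Members, rule and comparisons were chosen with earlier results of these data known. No test between time points was made, as each had 1 library. The steps were tested on simulated data. Python 3.11.15, numpy 2.4.6, pandas 2.3.3, scipy 1.17.1 and matplotlib 3.10.9 were used.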

Additional observations from a re-analysis of the deposited data

How the results depend on the processing

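No paired analysis was possible because each group held 1 library, and leaving out a replicate was not possible either. The results compared were the number of strong regions, their share of reads in MEF day 0 and in iPSC, the median ratio of highest to lowest library, the 2-fold differences from MEF day 0 to iPSC with their median on the log2 scale, and the lowest and highest share of a chromosome's regions. A cutoff of 300 gave 9386 regions, 34.7% and 32.8% of reads, a ratio of 3.1, 123 regions higher and 5314 lower, a median difference of -1.08 and chromosome shares of 3.44% to 5.74%. A cutoff of 1000 gave 1179 regions, 8.18% and 7.3% of reads, a ratio of 2.83, 1 region higher and 849 lower, a median of -1.19 and shares of 0.358% (chromosome 13) to 0.989% (chromosome 7). Choosing the regions with equal autosomal totals gave 6355, with 28.0% and 25.4% of reads, a ratio of 1.51, 96 higher and 196 lower, a median of -0.13 and shares of 2.31% (chromosome 18) to 4.12% (chromosome 19). Quantile normalisation gave 5824 regions, 26.8% and 24.0% of reads, a ratio of 1.42, 141 higher and 105 lower, a highest chromosome share of 3.87% (chromosome 19), and a median of 0.034, the only setting in which its sign turned. Not requiring MEF day 0 gave 5537 regions, 24.3% and 23.5% of reads, a ratio of 3.0 and a median of -1.10. Of these regions 298 were higher and 3251 lower. The regions that this setting added were under 500 in MEF day 0 and at least 500 in iPSC, which itself favours higher calls. A 4-fold threshold left 2 higher and 133 lower. The same 5222 regions with equal totals had a ratio of 1.49, 215 higher, 126 lower and a median of -0.12. An alternative chosen after seeing the data, equal totals with a cutoff of 580.2, kept 5226 regions, with chromosome 6 lowest at 1.86%, 24.7% and 22.3% of reads, a ratio of 1.47, 62 higher, 123 lower and a median of -0.14. With a pseudocount of 10, 29 regions were higher and 3221 lower, with a median of -1.12. The size of the difference between MEF day 0 and iPSC thus rests on the scaling, and with quantile normalisation its direction as well, and the cause was not tested. With 1 library per time point, the counting intervals do not cover variation between cultures.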

Other observations

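The rows that lie next to a strong region without being strong themselves were more accessible than the remaining autosomal rows. Their median was 60.2 normalised counts in MEF day 0, against 38.2 in the remaining rows, and 66.4 against 38.8 in iPSC. Of these rows 29.6% held at least 50 normalised counts in all 6 libraries, against 16.2% of the remaining rows.

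The weaker and the stronger members differed slightly in their course. With equal totals the median log2 difference from MEF day 0 to iPSC was 0.08 in the 1306 members with the lowest mean over the 6 libraries and -0.22 in the 1306 with the highest. The mean on the authors' scale, which ordered them, is weighted towards MEF day 0, so the order is not independent of it.

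Among autosomes, the median log2 difference of the strong regions from MEF day 0 to iPSC with equal totals lay between -0.21 on chromosome 19 and 0.05 on chromosome 13, where the X-linked regions of the same cutoff had 0.88.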
